A study of Mus musculus with 3 samples.

Results

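The WNT ligands, receptors and modulators are 50 of the 29625 genes listed for the 3 libraries of this study. They are all genes whose symbol is Wnt, Fzd, Sfrp, Dkk or Rspo followed by a number, together with Lgr4, Lgr5, Lgr6, Lrp5, Lrp6, Axin2, Frzb, Wif1 and Notum. The list is set by names and by no measured value, but it was chosen with earlier results of these data known. By role they are 19 ligands, 12 receptors, 7 genes of the R-spondin axis, 11 secreted inhibitors and the feedback target Axin2. At least 50 counts over the 3 libraries were recorded for 41 of them, and 9 members stayed below that.

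Nuclei were taken from the epididymal fat of male C57BL/6J mice at 3 stages of weight gain and read with the 10x Genomics platform, with 1 library per stage that pooled the fat of 8 mice. Mice were bought at 5 weeks of age and acclimated for 1 week. Ctrl mice were kept on an ordinary diet. Mid_Ob mice were given a diet with 60% fat and weighed over 10% more than the control mean, and Ob mice were given the same diet and weighed over 20% more. A drawing of the design places Ctrl, Mid_Ob and Ob at weeks 5, 7 and 9 without saying whether these are weeks of age or of diet, so stage, diet and time cannot be told apart. Since each stage is 1 pool, no error between mice can be given and no p-value is printed. Levels are given as CPM, the counts of UMIs (tags that mark single transcript molecules) of a gene scaled to a common total. Ratios carry in parentheses a 95% interval for the error of counting alone. Calls of higher or lower need a ratio beyond 1.5-fold and 50 or more counts in the 2 libraries together.

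WNT ligands are secreted lipid-modified proteins that bind a frizzled receptor together with the co-receptor LRP5 or LRP6. In the canonical branch this keeps beta-catenin from being degraded, and beta-catenin then acts with TCF/LEF factors on target genes such as Axin2, whose product feeds back on the pathway. R-spondins bind LGR4, LGR5 or LGR6 and hold frizzled receptors at the cell surface, whereas secreted frizzled-related proteins, WIF1 and NOTUM act on the ligands and DKK proteins act on the co-receptors. In adipose tissue the canonical branch is best known for holding back the formation of adipocytes from progenitors, and WNT5A with its antagonist SFRP5 has been studied in the inflammation of obese fat.

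Ctrl, Mid_Ob and Ob held 53980929, 57665213 and 111595518 UMIs, a nucleus had a median of 4472, 6676 and 3946 of them, and the authors divided the nuclei into 14, 11 and 21 clusters. Clusters are named here from marker genes. Those with markers of testis, germ cells or epididymis held 47.0%, 30.3% and 0% of the UMIs of Ctrl, Mid_Ob and Ob, although the labels give epididymal fat as the tissue, and clusters left without a name held 7.32%, 5.83% and 8.97%. Adipocyte-like clusters held 25.2%, 46.9% and 55.4%, and macrophage-like clusters 8.85%, 6.15% and 19.6%. All 30 clusters compared between stages carried at least 3 markers of their own class at over 2-fold, and 0 of them had more markers of another class among their 10 leading genes. In counts summed over a library, fewer cells of a type and less RNA per cell cannot be told apart.

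The regulatory sequence of 5 members that the results turn on is shown first. These are the 250 bases before a transcription start in RefSeq, on GRCm38.p6, written 5′ to 3′ on the strand of the gene. Capitals mark every match, on either strand, to the TCF/LEF motif CTTTGAT or CTTTGAA, or to the GC box GGGCGG. Axin2 is the feedback target of the pathway (chr11:108920099-108920348, + strand). Sfrp5 is the secreted inhibitor with the most counts in Ob (chr19:42202253-42202502, - strand), Rspo1 the R-spondin with the most counts (chr4:124986180-124986429, + strand) and Wnt8b a ligand counted almost entirely in adipocyte-like clusters of Mid_Ob and Ob (chr19:44493222-44493471, + strand). Wnt5b, the ligand with the most counts, is shown for 1 of its 3 annotated starts, the one with a TCF/LEF motif (chr6:119449387-119449636, - strand).
Axin2: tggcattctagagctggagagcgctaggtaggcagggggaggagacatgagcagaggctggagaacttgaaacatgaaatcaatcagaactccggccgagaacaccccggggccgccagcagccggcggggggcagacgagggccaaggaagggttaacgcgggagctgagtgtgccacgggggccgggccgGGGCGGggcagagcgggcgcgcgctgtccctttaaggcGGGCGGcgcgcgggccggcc
Sfrp5: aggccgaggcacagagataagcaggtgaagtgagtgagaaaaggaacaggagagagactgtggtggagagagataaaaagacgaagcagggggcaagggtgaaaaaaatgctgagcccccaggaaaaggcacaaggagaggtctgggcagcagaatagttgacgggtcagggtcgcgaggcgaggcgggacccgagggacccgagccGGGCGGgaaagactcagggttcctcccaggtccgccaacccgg
Rspo1: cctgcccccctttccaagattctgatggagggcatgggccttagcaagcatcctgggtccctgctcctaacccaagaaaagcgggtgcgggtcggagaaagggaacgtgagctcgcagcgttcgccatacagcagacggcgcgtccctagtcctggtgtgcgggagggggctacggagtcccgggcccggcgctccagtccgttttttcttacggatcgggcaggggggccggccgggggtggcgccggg
Wnt8b: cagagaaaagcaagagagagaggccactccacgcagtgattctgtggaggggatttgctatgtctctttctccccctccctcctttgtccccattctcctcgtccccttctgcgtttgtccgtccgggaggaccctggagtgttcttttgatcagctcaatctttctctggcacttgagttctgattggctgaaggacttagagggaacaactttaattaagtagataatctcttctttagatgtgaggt
Wnt5b: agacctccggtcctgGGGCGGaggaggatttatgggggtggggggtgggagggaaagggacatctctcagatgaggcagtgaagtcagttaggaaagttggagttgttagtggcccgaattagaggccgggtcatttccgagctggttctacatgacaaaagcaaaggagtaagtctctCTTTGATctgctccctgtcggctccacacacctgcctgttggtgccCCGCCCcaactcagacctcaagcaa
In these windows Axin2 had 2 GC boxes and 0 TCF/LEF motifs, Sfrp5 had 1 and 0, Rspo1 and Wnt8b had neither, and Wnt5b had 2 GC boxes and 1 TCF/LEF motif. Promoters were at hand for 32 members, 35 windows in all. A TCF/LEF motif was found in 3 of these 35 windows (Wnt5b, Wnt11 and Dkk1) and in 7.48% of all 32851 windows of the same length. A GC box was found in 25 of the 35 and in 32.7% of all windows. A match describes these letters only.

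Over whole libraries more members were lower than higher at each step. In Mid_Ob against Ctrl, 7 members were higher and 16 lower of the 39 with enough counts (17.9% and 41.0%), beside 17.3% higher and 35.5% lower over all 22208 genes tested. In Ob against Mid_Ob, 7 were higher and 13 lower of 35 (20% and 37.1%), beside 17.5% and 27.3% of all genes. In Ob against Ctrl, 7 were higher and 22 lower of 40 (17.5% and 55.0%), beside 18.1% and 43.5% of all genes. The median log2 ratio of the members was -0.44, -0.17 and -0.81 in these comparisons, and that of all genes was -0.16, -0.09 and -0.35. The shares of members called higher were thus close to the background, and the shares called lower lay above it. This difference was not tested. Scaled by the median of the gene ratios, the split was 10 higher and 12 lower of 39 for Mid_Ob against Ctrl, beside 22.1% and 32.1% of all genes, and 11 and 19 of 40 for Ob against Ctrl, beside 28.9% and 36.6%. With that scaling the share of members called lower in Mid_Ob against Ctrl was below that of all genes. Without the testis-like and epididymis-like clusters the counts were 4 higher and 15 lower of 36 in Mid_Ob against Ctrl, beside 15.6% and 22.9% of all genes. They were 5 and 14 of 33 in Ob against Mid_Ob, beside 15% and 24.8%, and 5 and 20 of 36 in Ob against Ctrl, beside 17% and 31.9%.

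**Figure D1:**
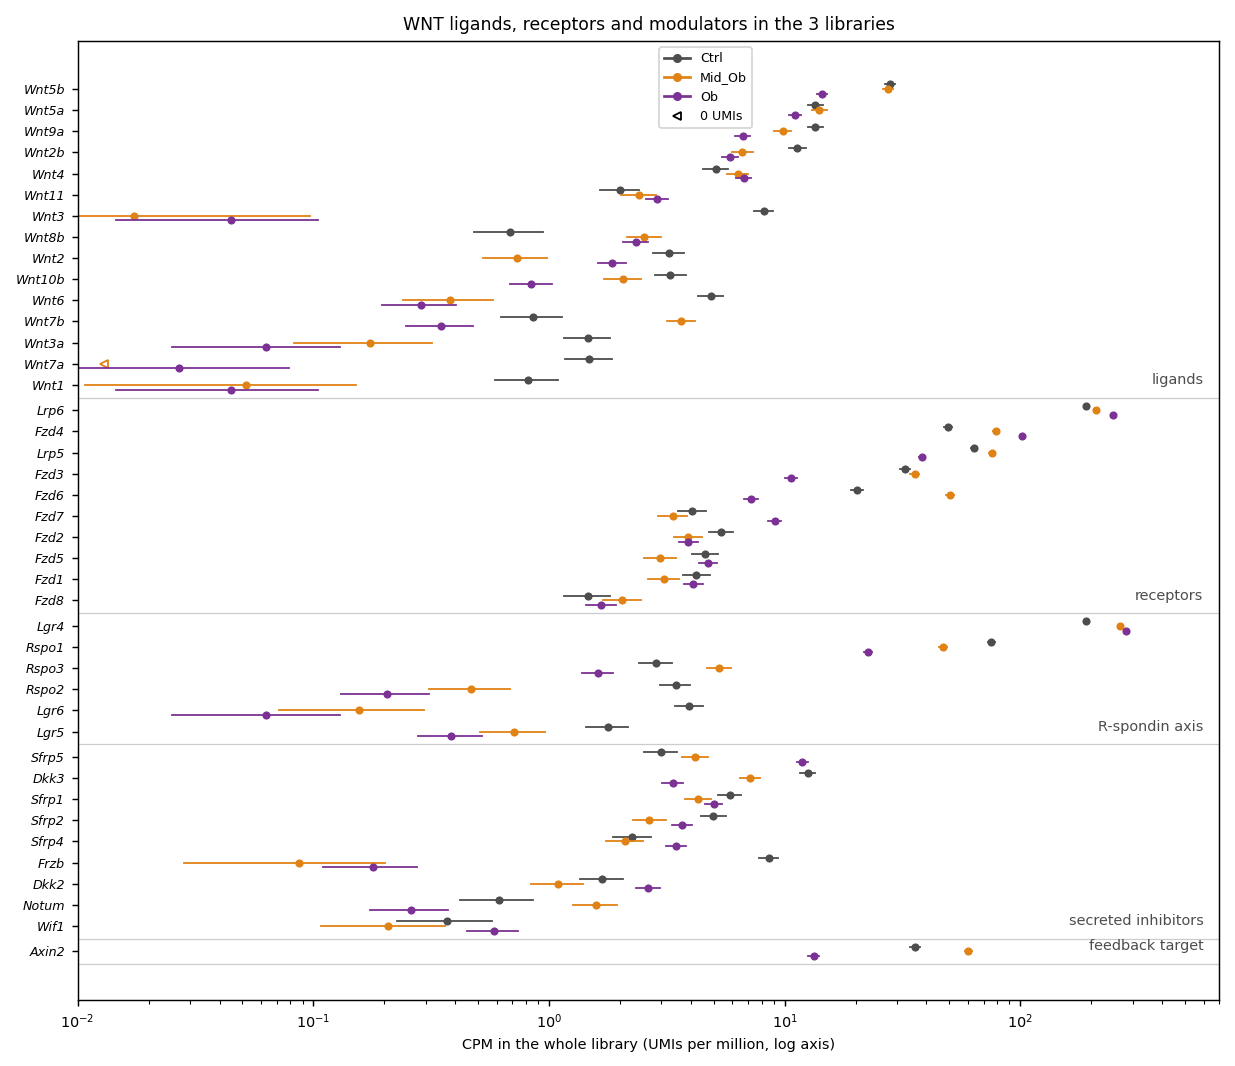
Level of the 41 members with at least 50 counts in the Ctrl, Mid_Ob and Ob libraries, in CPM on a log axis, grouped by role. Points are single libraries and lines are exact 95% Poisson intervals that cover counting error only. Ob lies far below Ctrl for Wnt3 (0.0448 against 8.15 CPM) and Rspo1 (22.5 against 75.5 CPM) and above it for Sfrp5 (11.9 against 2.98 CPM).

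By role, the calls are read beside the shares of all genes. Of all genes, 17.3% were higher and 35.5% lower in Mid_Ob against Ctrl. The shares were 17.5% and 27.3% in Ob against Mid_Ob, and 18.1% and 43.5% in Ob against Ctrl. Of the ligands, 2 were higher and 7 lower of 14 tested in Mid_Ob against Ctrl, 1 and 3 of 11 in Ob against Mid_Ob, and 1 and 10 of 14 in Ob against Ctrl. Of the genes of the R-spondin axis, 1 was higher and 4 lower of 6, then 0 and 4 of 5, then 0 and 5 of 6. Receptors had 2 higher and 1 lower of 10, then 2 and 3 of 10, and 2 and 3 of 10. Secreted inhibitors had 1 higher and 4 lower of 8, then 4 and 2 of 8, then 4 and 3 of 9. Among those lower than in Ctrl at both later stages, Wnt2, Wnt3, Wnt3a, Wnt7a and Lgr6 had their largest Ctrl share in germ cell-like clusters. Wnt6 and Rspo2 had theirs in the testis somatic-like cluster. The differences between roles, and from all genes, were not tested.

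**Figure D2:**
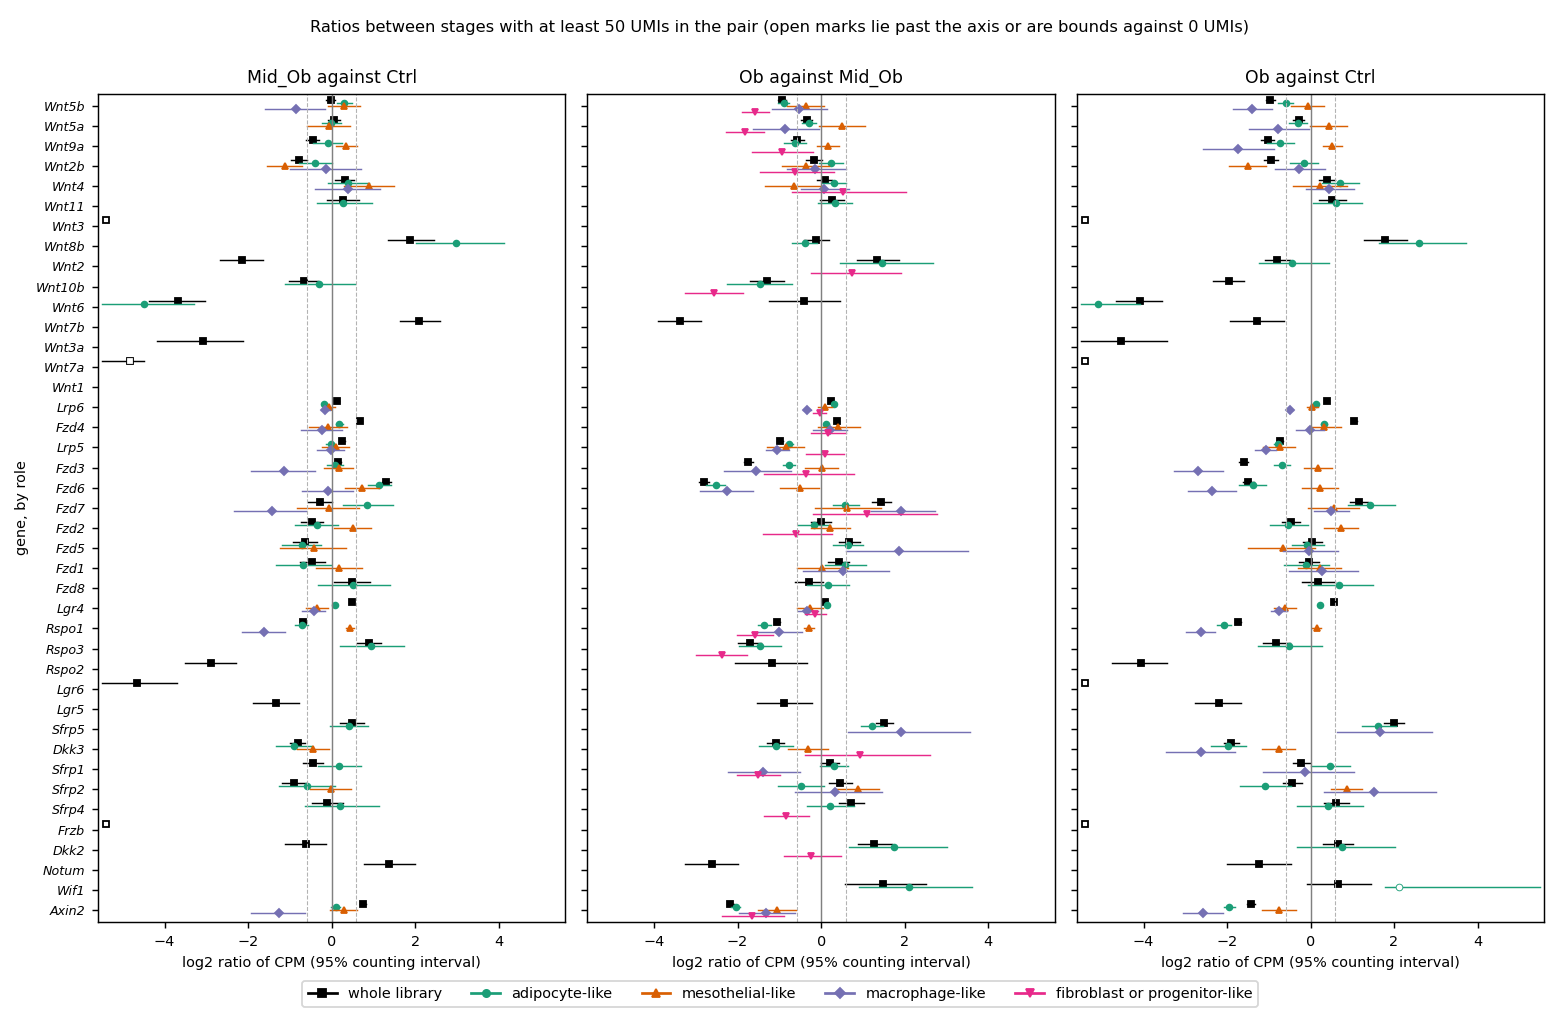
Log2 ratio of CPM for Mid_Ob against Ctrl, Ob against Mid_Ob and Ob against Ctrl, over whole libraries and within 4 of the 7 cell classes compared, for pairs with at least 50 counts. Marks show the ratio and lines its 95% counting interval, and dashed lines stand at 1.5-fold. Axin2 lies left of the dashed line in all 4 of these classes for Ob against Mid_Ob, and Rspo1 lies between the dashed lines in the mesothelial-like class in all 3 panels.

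Among the ligands, Wnt5b and Wnt5a had the most counts over the 3 libraries. Counts are not scaled to transcript length, so that the order of members by counts is not an order of expression. Both are best known for signalling outside the beta-catenin branch. Wnt5b was counted at 28.0 CPM in Ctrl, 27.6 CPM in Mid_Ob and 14.4 CPM in Ob, so that the first pair of stages was level and Ob stood 1.92-fold below Mid_Ob (1.79 to 2.05). Within adipocyte-like clusters Wnt5b stood at 16.2 CPM in Ob against 30.3 CPM in Mid_Ob, 1.87-fold lower (1.70 to 2.05), and at 24.5 CPM in Ctrl. Wnt5a was counted at 13.5, 14.1 and 11.1 CPM in Ctrl, Mid_Ob and Ob and stayed within 1.5-fold in every comparison of libraries. Both had their highest levels outside the adipocyte-like clusters in all 3 libraries. In cluster 8 of Mid_Ob, which carries fibroblast or progenitor markers, Wnt5b reached 76.7 CPM and Wnt5a 42.9 CPM. In cluster 4 of Ctrl, left unnamed because its leading genes mix types although all 14 fibroblast or progenitor markers were over 2-fold there, they reached 80.4 and 42.0 CPM. Wnt5b overlaps Fbxl14 on the other strand (505, 405 and 818 UMIs in Ctrl, Mid_Ob and Ob). It is not stated whether counting used the strand, so it is not known whether reads of one gene were counted for the other.

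Wnt9a and Wnt2b had their highest level of each library in a mesothelial-like cluster. Mesothelial cells line the surface of the fat pad. Wnt9a stood at 68.8, 87.7 and 98.7 CPM there in Ctrl, Mid_Ob and Ob, against library levels of 13.5, 9.85 and 6.63 CPM. The library level was called lower in Ob against Ctrl, by 2.04-fold (1.84 to 2.26), while the level inside the mesothelial-like clusters was within 1.5-fold. The mesothelial-like share of all UMIs was 10.4%, 4.05% and 2.48% in the same stages. Wnt2b, by contrast, was lower within these clusters. It stood at 54.0 CPM in Ctrl, 24.8 CPM in Mid_Ob and 19.2 CPM in Ob, which is 2.18-fold lower in Mid_Ob than in Ctrl (1.64 to 2.93) and 2.82-fold lower in Ob than in Ctrl (2.10 to 3.85). Wnt2b overlaps Gm43846 on the same strand, which was counted 75, 35 and 68 times in the 3 libraries. Wnt4 was 18.8 CPM in the mesothelial-like cluster of Mid_Ob, against 10.2 CPM in Ctrl (1.85-fold higher, 1.22 to 2.79), and 11.9 CPM in Ob, while its library level stayed within 1.5-fold at 5.11, 6.33 and 6.70 CPM.

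Wnt8b was higher in the adipocyte-like clusters of Mid_Ob and Ob than in those of Ctrl. It was counted at 0.661 CPM in Ctrl, 5.22 CPM in Mid_Ob and 3.96 CPM in Ob there, from 9, 141 and 245 UMIs. This is 7.90-fold higher in Mid_Ob than in Ctrl (4.04 to 17.6) and 6.0-fold higher in Ob than in Ctrl (3.11 to 13.3). Of all Wnt8b counts, 96.6% in Mid_Ob and 93.9% in Ob came from adipocyte-like clusters. In Ctrl the highest level was 9.97 CPM, in the germ cell-like cluster 14, which held 13 of the 37 counts. Over whole libraries Wnt8b stood at 0.685, 2.53 and 2.34 CPM, 3.69-fold higher in Mid_Ob than in Ctrl and 3.41-fold higher in Ob than in Ctrl, and without the testis-like and epididymis-like clusters the ratios were 7.21 and 4.78. With equal weight for every cluster the library ratios turned to 0.576 and 0.829, because the small germ cell-like cluster then counts as much as the adipocyte-like one. Wnt8b is a canonical ligand best known from the embryonic brain, and it lies at chr19:44493472-44514273 of GRCm38.

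Wnt3, Wnt3a, Wnt7a, Wnt1 and Wnt2 followed the germ cell-like clusters of Ctrl. Wnt3 was counted 440 times in Ctrl, 1 time in Mid_Ob and 5 times in Ob, and 77.3% of the Ctrl counts lay in germ cell-like clusters, with 206 CPM in cluster 14. The ratio was 470-fold lower in Mid_Ob than in Ctrl on that single count (83.9 to 18607) and 182-fold lower in Ob than in Ctrl (77.4 to 563). Wnt7a was counted 80 times in Ctrl, 81.3% of them in germ cell-like clusters, and 0 times in Mid_Ob. This is 28.5-fold lower when 3 counts are put in place of 0, and the counting interval starts at 22.6-fold. Wnt3a had 72.2% and Wnt2 67.2% of their Ctrl counts in germ cell-like clusters, and Wnt1 reached 19.9 CPM in cluster 14. Wnt3a was counted at 1.46 CPM in Ctrl, 0.173 CPM in Mid_Ob and 0.0627 CPM in Ob, 8.44-fold lower in Mid_Ob than in Ctrl (4.36 to 18.3) and 23.3-fold lower in Ob than in Ctrl (10.8 to 59.9). Wnt2 stood at 3.22, 0.728 and 1.85 CPM, so that Ob was 2.55-fold above Mid_Ob (1.82 to 3.64), with its highest Ob level of 17.8 CPM in the unnamed cluster 9. Wnt3 counts were also found in other clusters of Ctrl, and without the testis-like and epididymis-like clusters its ratio to Ctrl was still 0.00936 in Mid_Ob and 0.0169 in Ob. The 15 spermatid markers were found in the adipocyte-like clusters too, with Akap4 at 0 in Ob, at a summed 348 CPM in Ctrl, 24.6 CPM in Mid_Ob and 19.5 CPM in Ob, and their part in these ratios was not tested.

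The remaining ligands were low. Wnt6 stood at 4.85 CPM in Ctrl, 0.382 CPM in Mid_Ob and 0.287 CPM in Ob, with 43.9% of the Ctrl counts in the testis somatic-like cluster, 12.7-fold lower in Mid_Ob than in Ctrl (8.23 to 20.7) and 16.9-fold lower in Ob than in Ctrl (11.7 to 25.3). It was lower within adipocyte-like clusters as well, at 0.222 CPM in Mid_Ob and 0.146 CPM in Ob, against 4.99 CPM in Ctrl, from 6, 9 and 68 UMIs. The 8 Leydig cell markers summed there to 202, 9.36 and 7.28 CPM in Ctrl, Mid_Ob and Ob, with none at 0 in Ctrl, Hsd3b6 at 0 in Mid_Ob and Hsd3b1 at 0 in Ob. Their part in the adipocyte-like level of Wnt6 was not tested. Wnt7b stood at 3.64 CPM in Mid_Ob, against 0.852 CPM in Ctrl (4.27-fold higher, 3.09 to 6.02), and 68.1% of the Mid_Ob counts lay in epididymal epithelium-like clusters. In Ob it stood at 0.349 CPM, 10.4-fold below Mid_Ob (7.38 to 15.1). Wnt7b overlaps AU022754 on the other strand, which was counted 55, 333 and 23 times in the 3 stages. Wnt10b, known for holding back adipocyte formation, stood at 3.28, 2.06 and 0.842 CPM and was 3.89-fold lower in Ob than in Ctrl (3.01 to 5.05). Wnt11 stood at 2.0, 2.41 and 2.88 CPM, within 1.5-fold over libraries.

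**Figure D3:**
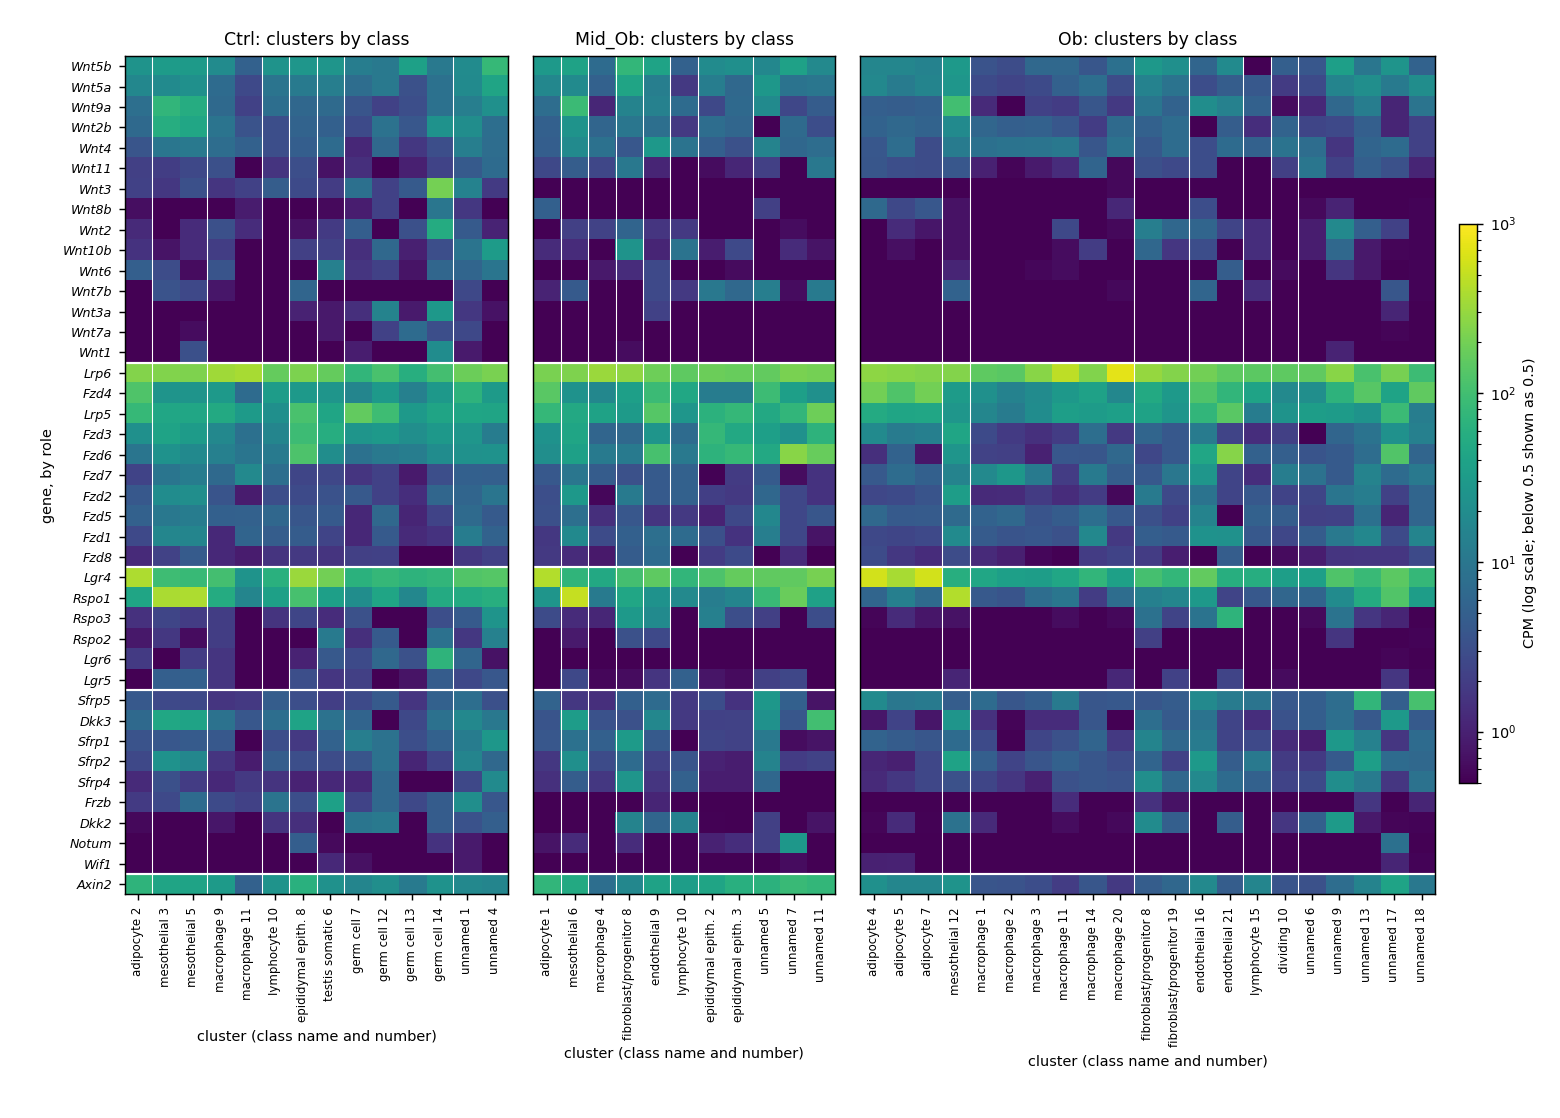
Level of the 41 members in each cluster of Ctrl, Mid_Ob and Ob, in CPM on a log colour scale with values below 0.5 shown as 0.5. Columns are clusters ordered by class and rows are genes ordered by role. Rspo1 is brightest in the mesothelial-like columns (376 and 390 CPM in Ctrl, 516 CPM in Mid_Ob, 421 CPM in Ob), Lgr4 in the adipocyte-like columns and Wnt3 in the germ cell-like cluster 14 of Ctrl.

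Among the receptors, the co-receptor Lrp6 had the most counts, with 190 CPM in Ctrl, 209 CPM in Mid_Ob and 247 CPM in Ob, within 1.5-fold at every step. It was spread over adipocyte-like clusters (241, 214 and 263 CPM) and macrophage-like clusters (355, 320 and 253 CPM). The highest Lrp6 level was 737 CPM in cluster 20 of Ob, a macrophage-like cluster led by Ednrb, Cd209b and F13a1, followed by 464 CPM in cluster 11 of Ob, whose leading genes include Lyve1 and Cd163. Lrp5, the other co-receptor, was lower in Ob than in Mid_Ob, at 38.4 CPM against 75.9 CPM (1.98-fold lower, 1.90 to 2.06). The same direction was called within the adipocyte-like (1.70-fold), mesothelial-like (1.80-fold) and macrophage-like clusters (2.07-fold), while in fibroblast or progenitor-like clusters Lrp5 was 1.06-fold higher in Ob and in endothelial-like clusters 1.19-fold lower, both within the limit. In Ob against Ctrl, Lrp5 was called lower in 3 of 3 classes, by 1.73-fold, 1.68-fold and 2.11-fold in the adipocyte-like, mesothelial-like and macrophage-like classes. The 2 co-receptors thus differed in what was counted, with Lrp6 level and Lrp5 lower in Ob.

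Fzd4 had the most counts of the frizzled genes and was highest in adipocyte-like clusters in all 3 libraries. It stood at 49.4, 78.6 and 101.7 CPM in the 3 libraries, 1.59-fold higher in Mid_Ob than in Ctrl (1.52 to 1.67) and 2.06-fold higher in Ob than in Ctrl (1.97 to 2.15). Within adipocyte-like clusters it stood at 125, 142 and 155 CPM, within 1.5-fold in all 3 comparisons, and without the testis-like and epididymis-like clusters the library ratio of Ob to Ctrl was 1.37, no longer called. Fzd4 also separated the adipocyte-like clusters of Ob from each other, with 200 CPM in cluster 7, 199 CPM in cluster 4 and 123 CPM in cluster 5. Fzd4 lies at chr7:89404355-89413134.

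Fzd6 was highest in Mid_Ob, at 50.4 CPM, against 20.3 CPM in Ctrl (2.48-fold higher, 2.31 to 2.66), and at 7.20 CPM in Ob, against 50.4 CPM in Mid_Ob (6.99-fold lower, 6.47 to 7.57). It was strongest in clusters that are not adipocytes, with 261 CPM in the unnamed cluster 7 of Mid_Ob, 170 CPM in its unnamed cluster 11, 119 CPM in the epididymal epithelium-like cluster of Ctrl and 254 CPM in the endothelial-like cluster 21 of Ob. Within adipocyte-like clusters Fzd6 stood at 9.62, 21.1 and 3.67 CPM in Ctrl, Mid_Ob and Ob, and within macrophage-like clusters at 11.7, 11 and 2.29 CPM. Without cluster 5 of Ob, the ratio of Ob to Mid_Ob in adipocyte-like clusters was 0.0577, so that most adipocyte-like Fzd6 counts of Ob lay in that cluster. The 17 epididymal markers summed to 304, 2686 and 79.8 CPM in the adipocyte-like clusters and to 86.3, 1563 and 23.7 CPM in the macrophage-like clusters of the same stages. In the adipocyte-like clusters 2 of the 17 were at 0 in Ctrl (Defb18 and Lcn6), 0 in Mid_Ob and 9 in Ob, among them Lcn5, Lcn8 and Lcn9. The sums were highest in Mid_Ob like the adipocyte-like level of Fzd6, and their part in its level was not tested. Without the testis-like and epididymis-like clusters the library ratios of Fzd6 were 2.71 for Mid_Ob to Ctrl and 0.183 for Ob to Mid_Ob. The unnamed clusters stayed in these ratios, among them clusters 7 and 11 of Mid_Ob with 261 and 170 CPM.

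Fzd3 was counted at 32.3, 35.7 and 10.6 CPM and was lower in Ob than in Mid_Ob by 3.35-fold (3.12 to 3.6). In Mid_Ob 52.6% of its counts lay in epididymal epithelium-like clusters, and within adipocyte-like clusters the difference was smaller, at 14.1 CPM in Ob against 24.0 CPM in Mid_Ob (1.70-fold lower, 1.54 to 1.89). Fzd7 moved the other way, at 9.08 CPM in Ob against 3.35 CPM in Mid_Ob (2.71-fold higher, 2.32 to 3.18). In adipocyte-like clusters Fzd7 stood at 2.28, 4.11 and 6.15 CPM, and Ob was 2.70-fold above Ctrl (1.87 to 4.03). In macrophage-like clusters it stood at 12.1, 4.51 and 17 CPM, from 58, 16 and 371 UMIs, with 28.3 CPM in cluster 2 of Ob. The ratio of Ob to Ctrl in macrophage-like clusters was within 1.5-fold and depended on which Ctrl cluster was kept, at 0.941 without cluster 9 and 2.50 without cluster 11. Fzd1, Fzd2, Fzd5 and Fzd8 each stayed under 6 CPM in all 3 libraries.

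In the R-spondin axis, the receptor Lgr4 had the most counts of all 50 members, with 191 CPM in Ctrl, 265 CPM in Mid_Ob and 282 CPM in Ob. The adipocyte-like clusters held 52.2%, 74.1% and 90.5% of its counts, at 395, 420 and 460 CPM, within 1.5-fold between stages. As for Fzd4, the level was higher in clusters 7 and 4 of Ob (603 and 588 CPM) than in its cluster 5 (367 CPM). In 2 other classes Lgr4 was lower in Ob than in Ctrl, at 59.3 CPM against 90.9 CPM in mesothelial-like clusters (1.53-fold lower, 1.28 to 1.84) and at 38.8 CPM against 65.5 CPM in macrophage-like clusters (1.69-fold lower, 1.48 to 1.92), and in lymphocyte-like clusters it was within 1.5-fold.

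Rspo1, a secreted R-spondin, marked the mesothelial-like clusters. It stood at 380, 516 and 421 CPM there in Ctrl, Mid_Ob and Ob, within 1.5-fold in all 3 comparisons, and these clusters held 52.3%, 44.6% and 46.3% of its counts. Over whole libraries it stood at 75.5, 46.9 and 22.5 CPM and was lower at each step, by 1.61-fold in Mid_Ob against Ctrl (1.53 to 1.69) and by 2.08-fold in Ob against Mid_Ob (1.97 to 2.2). Rspo1 was also lower outside the mesothelium. In adipocyte-like clusters it stood at 43.5, 26.5 and 10.3 CPM, and Ob was 4.21-fold below Ctrl (3.76 to 4.72). In macrophage-like clusters it stood at 35.6, 11.6 and 5.72 CPM. The 12 mesothelial markers took the same order of stages in these clusters, summing to 504, 234 and 119 CPM in the adipocyte-like and to 451, 130 and 86.4 CPM in the macrophage-like clusters, while they summed to 5105, 5144 and 5571 CPM in the mesothelial-like clusters. Of these markers Calb2 was at 0 in the adipocyte-like clusters of all 3 stages and in the macrophage-like clusters of Mid_Ob and Ob. The part of mesothelial RNA in the Rspo1 level of the other classes was not tested. Rspo1 overlaps Gm12930 on the other strand (391, 172 and 183 UMIs).

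Rspo3 and Rspo2 had their highest levels in other clusters. Rspo3 stood at 2.85, 5.27 and 1.61 CPM, 1.85-fold higher in Mid_Ob than in Ctrl (1.52 to 2.26) and 3.27-fold lower in Ob than in Mid_Ob (2.71 to 3.95). In Mid_Ob 44.7% of its counts lay in epididymal epithelium-like clusters, and without these and the testis-like clusters the ratio of Mid_Ob to Ctrl was 1.03. Its highest levels were 71.1 CPM in cluster 21 of Ob, whose leading genes Reln, Prox1 and Flt4 are known from lymphatic endothelium, and 29.2 CPM in the fibroblast or progenitor-like cluster of Mid_Ob. Rspo2 stood at 3.45, 0.468 and 0.206 CPM, with 51.6% of the Ctrl counts in the testis somatic-like cluster. Lgr6 stood at 3.95, 0.156 and 0.0627 CPM, with 62.9% of the Ctrl counts in germ cell-like clusters, 25.3-fold lower in Mid_Ob than in Ctrl (13.1 to 56) and 62.9-fold lower in Ob than in Ctrl (30 to 158). Lgr5, a stem cell marker in the gut, stayed low at 1.78, 0.711 and 0.385 CPM.

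Among the secreted inhibitors, Sfrp5 was the member with the largest ratio of Ob to Ctrl over whole libraries. SFRP5 binds WNT proteins and is made by adipocytes. It stood at 2.98 CPM in Ctrl, 4.18 CPM in Mid_Ob and 11.9 CPM in Ob, and Ob was 2.85-fold above Mid_Ob (2.48 to 3.28) and 3.99-fold above Ctrl (3.39 to 4.73). In adipocyte-like clusters it stood at 4.18, 5.55 and 12.9 CPM, 2.32-fold higher in Ob than in Mid_Ob (1.95 to 2.78) and 3.08-fold higher in Ob than in Ctrl (2.35 to 4.10). In macrophage-like clusters it stood at 1.67, 1.41 and 5.31 CPM, from 8, 5 and 116 UMIs. The 16 adipocyte markers, 0 of them at 0, summed there to 2963, 2251 and 3627 CPM, against 23849, 25582 and 31172 CPM in adipocyte-like clusters, and their part in the macrophage-like level of Sfrp5 was not tested. The highest levels were in unnamed clusters rich in mitochondrial transcripts, with 110 CPM in cluster 18 of Ob (8.39% mitochondrial UMIs) and 74.2 CPM in cluster 13 of Ob (6.18%), 27.7 CPM in cluster 5 of Mid_Ob (2.98%) and 7.72 CPM in cluster 1 of Ctrl (1.85%). Mitochondrial UMIs made up 0.22%, 0.343% and 0.472% of the 3 libraries. Without the unnamed clusters the ratio of Ob to Mid_Ob was 2.44.

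Dkk3, a divergent member of the Dickkopf family, was lower at each step. It stood at 12.5, 7.16 and 3.36 CPM in the libraries, 1.75-fold lower in Mid_Ob than in Ctrl (1.55 to 1.98) and 2.13-fold lower in Ob than in Mid_Ob (1.85 to 2.46). In mesothelial-like clusters it stood at 44.9, 32.9 and 26.4 CPM, and in adipocyte-like clusters at 6.68, 3.59 and 1.70 CPM. Mesothelial-like clusters held 37.2% of the Dkk3 counts of Ctrl, and the 12 mesothelial markers summed to 504, 234 and 119 CPM in the adipocyte-like clusters of the 3 stages. Their part in the adipocyte-like level of Dkk3 was not tested. Its highest level in Mid_Ob was 101 CPM in the unnamed cluster 11 and in Ob 29.6 CPM in the unnamed cluster 17, and genes of cilia such as Rgs22 lead both. Sfrp1 stood at 5.85, 4.30 and 5.0 CPM, within 1.5-fold over libraries. Sfrp2 stood at 4.98, 2.67 and 3.67 CPM, 1.87-fold lower in Mid_Ob than in Ctrl (1.52 to 2.29), and its classes differed. It was 40.1 CPM in the mesothelial-like cluster of Ob, against 21.8 CPM in Mid_Ob and 22.1 CPM in Ctrl, while in adipocyte-like clusters it stood at 1.21 CPM in Ob, against 2.57 CPM in Ctrl.

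Over whole libraries, Dkk2, Wif1 and Sfrp4 were higher in Ob at low levels. Dkk2 stood at 2.64 CPM in Ob against 1.09 CPM in Mid_Ob (2.42-fold higher, 1.84 to 3.23), with 31.8 CPM in the unnamed cluster 9 and 19.5 CPM in the fibroblast or progenitor-like cluster 8 of Ob. Wif1 was counted 20, 12 and 65 times in the libraries. In adipocyte-like clusters Wif1 was counted 0, 6 and 59 times, 4.33-fold higher in Ob than in Ctrl with 3 counts in place of 0, and 90.8% of its Ob counts lay there. The library ratio of Wif1 in Ob to Ctrl was 1.57, its interval (0.940 to 2.74) includes no change, and with equal weight for every cluster it was 0.781. Sfrp4 stood at 2.26, 2.10 and 3.47 CPM, 1.65-fold higher in Ob than in Mid_Ob (1.34 to 2.04). Within classes, Sfrp4 was called higher in 0 and lower in 1 of the 2 classes tested for that pair, and Dkk2 higher in 1 and lower in 0 of 2. The highest Sfrp4 level was 26.0 CPM in the fibroblast or progenitor-like cluster of Mid_Ob and 21.6 CPM in cluster 8 of Ob. That class held 2.67% of the UMIs of Mid_Ob and 7.97% of those of Ob. Frzb, which had 67.5% of its Ctrl counts in the testis somatic-like cluster, stood at 8.56, 0.0867 and 0.179 CPM, 98.7-fold lower in Mid_Ob than in Ctrl (42.0 to 305) and 47.8-fold lower in Ob than in Ctrl (30.6 to 78.9). Notum, an enzyme that removes the lipid of WNT proteins, stood at 0.611, 1.58 and 0.260 CPM, 2.58-fold higher in Mid_Ob than in Ctrl (1.72 to 3.97) and 6.07-fold lower in Ob than in Mid_Ob (3.96 to 9.57), and was highest in cluster 7 of Mid_Ob, at 28.0 CPM, where Tinag, Rdh16 and Slc9a3 lead.

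**Figure D4:**
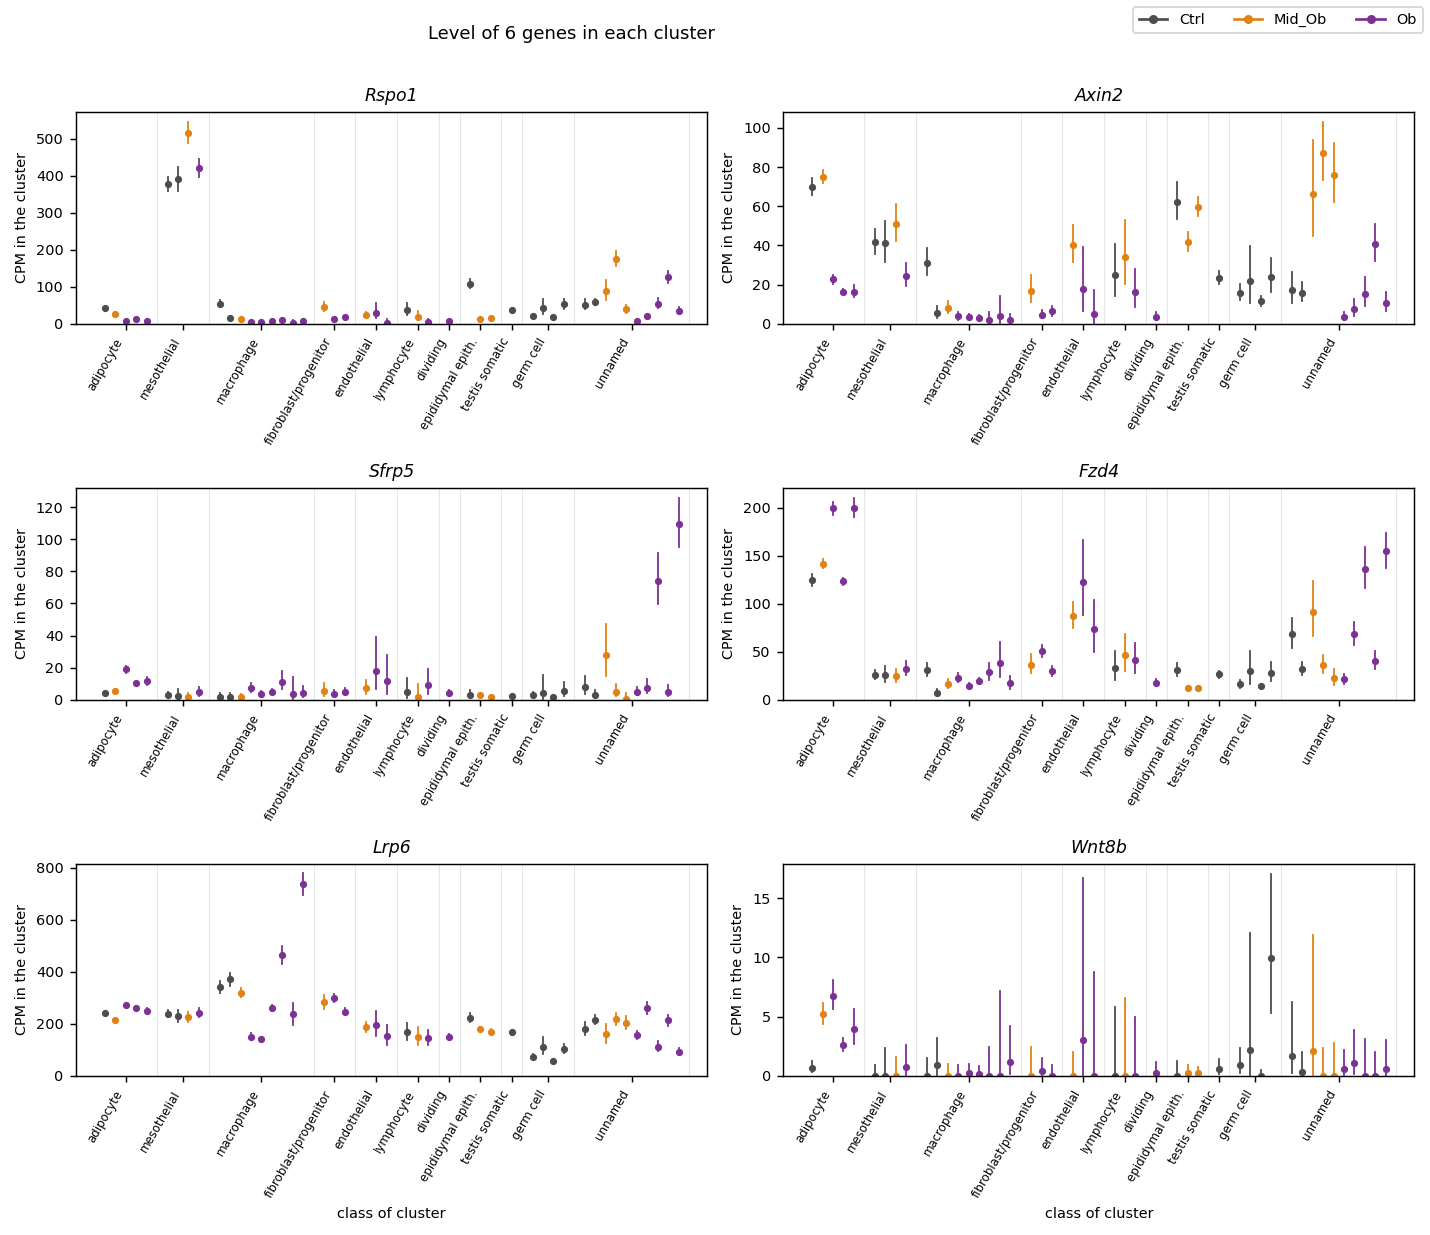
Level of Rspo1, Axin2, Sfrp5, Fzd4, Lrp6 and Wnt8b in every cluster, in CPM on linear axes that start at 0. Each point is 1 cluster, coloured by stage and grouped by class, and lines are exact 95% Poisson intervals for counting error. Axin2 stands at 70.0 CPM in the adipocyte-like cluster of Ctrl and 75 CPM in that of Mid_Ob, above all 3 adipocyte-like clusters of Ob.

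Axin2, the feedback target, was lower in Ob in every class in which it had enough counts. Over whole libraries it stood at 35.8 CPM in Ctrl, 60.1 CPM in Mid_Ob and 13.3 CPM in Ob. This is 1.68-fold higher in Mid_Ob than in Ctrl (1.59 to 1.78), 4.52-fold lower in Ob than in Mid_Ob (4.25 to 4.81) and 2.69-fold lower in Ob than in Ctrl (2.51 to 2.88). In adipocyte-like clusters it stood at 70.0, 75 and 18.2 CPM, so that Ctrl and Mid_Ob were level there and Ob stood 4.12-fold below Mid_Ob (3.83 to 4.44) and 3.85-fold below Ctrl (3.53 to 4.20). In the epididymal epithelium-like clusters Axin2 stood at 51.9 CPM in Mid_Ob and 62.3 CPM in Ctrl, below the adipocyte-like level of the same library. Leaving out cluster 4 or cluster 5 of Ob gave ratios of Ob to Mid_Ob of 0.219 and 0.277. In mesothelial-like clusters Axin2 stood at 41.5, 50.9 and 24.6 CPM, 2.07-fold lower in Ob than in Mid_Ob (1.52 to 2.83). In macrophage-like clusters it stood at 18.8, 7.89 and 3.16 CPM, 2.50-fold lower in Ob than in Mid_Ob (1.55 to 3.93). Fibroblast or progenitor-like clusters had 5.4 CPM in Ob against 16.9 CPM in Mid_Ob, 3.13-fold lower (1.86 to 5.14). Endothelial-like clusters had 10.6 CPM in Ob against 40.1 CPM in Mid_Ob, 3.79-fold lower (1.83 to 9.10), from 8 and 74 UMIs. Axin2 was therefore called lower in 5 of 5 classes for Ob against Mid_Ob and in 3 of 3 for Ob against Ctrl. RNA of one cell type can be counted in the clusters of another, so these classes may not be independent. Epididymal markers summed higher in Mid_Ob than in Ob in the macrophage-like, fibroblast or progenitor-like and endothelial-like clusters. Adipocyte markers summed higher in Ob than in Mid_Ob in the macrophage-like and endothelial-like clusters. The endothelial-like class of Ob includes cluster 21, led by genes known from lymphatic endothelium. The part of other cell types in these Axin2 levels was not tested. The macrophage-like difference between Mid_Ob and Ctrl rested on 1 cluster, since the ratio turned to 1.5 without cluster 9 of Ctrl. Axin2 lies at chr11:108920349-108950783 and overlaps Gm11670 on the other strand, counted 237, 808 and 819 times in the stages.

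A further 74 genes of the pathway, from ligand release to nuclear factors, were read in the same way. Over libraries 18 were higher and 14 lower of 71 in Mid_Ob against Ctrl (25.4% and 19.7%, beside 17.3% and 35.5% of all genes). In Ob against Mid_Ob 5 were higher and 24 lower of 70 (7.14% and 34.3%, beside 17.5% and 27.3%), and in Ob against Ctrl 9 and 23 of 71 (12.7% and 32.4%, beside 18.1% and 43.5%). In adipocyte-like clusters 13 were higher and 11 lower of 67 in Mid_Ob against Ctrl (19.4% and 16.4%, beside 15.3% and 20.2%), 4 and 19 of 70 in Ob against Mid_Ob (5.71% and 27.1%, beside 15.3% and 19%), and 6 and 22 of 68 in Ob against Ctrl (8.82% and 32.4%, beside 18.8% and 27.6%). These differences from all genes were not tested. The factor genes Tcf7 and Lef1 and the receptor ligase Rnf43 were highest in Mid_Ob. Tcf7 stood at 43.9 CPM in Mid_Ob against 9.60 CPM in Ctrl (4.58-fold higher), Rnf43 at 118 CPM against 39.0 CPM (3.03-fold higher), and Lef1 at 12.3 CPM in Ob against 263 CPM in Mid_Ob (21.4-fold lower). In Mid_Ob the epididymal epithelium-like clusters held 77.0% of the Lef1 counts, 67.4% of the Tcf7 counts and 60.4% of the Rnf43 counts. Within adipocyte-like clusters Lef1 stood at 17.3, 74.0 and 6.28 CPM and Rnf43 at 13.5, 46.7 and 6.0 CPM in Ctrl, Mid_Ob and Ob, where the epididymal markers given beside Fzd6 took the same order. Their part in these levels was not tested. Ctnnb1 (beta-catenin), Apc, Gsk3b and Tcf7l2 stayed within 1.5-fold between libraries at each step.

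Some of the other pathway genes at the ends of the list had most of their counts in testis-like or epididymis-like clusters. Sostdc1 was counted 231 times in Ctrl, 74.5% in germ cell-like clusters, and 0 times in Mid_Ob, 82.3-fold lower with 3 counts in place of 0, and 1 time in Ob. Dact3 and Daam2 were 12.1-fold and 9.96-fold lower in Mid_Ob than in Ctrl, and Daam2 had 76.1% of its Ctrl counts in the testis somatic-like cluster. Tnfrsf19 stood at 0.269 CPM in Ob against 13.1 CPM in Mid_Ob (48.6-fold lower), with 71.6% of the Mid_Ob counts in epididymal epithelium-like clusters. Higher in Ob than in Mid_Ob were Myc (2.66-fold), Tpbg (2.36-fold) and Amer1 (2.29-fold), and Tpbg and Amer1 were also 3.95-fold and 3.70-fold higher in Ob than in Ctrl.

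Within cell classes, the members were compared where a named class was found at both stages. In adipocyte-like clusters 4 members were higher and 6 lower of 28 in Mid_Ob against Ctrl, beside 15.3% and 20.2% of all genes. The counts were 5 and 10 of 30 in Ob against Mid_Ob, beside 15.3% and 19%, and 8 and 10 of 30 in Ob against Ctrl, beside 18.8% and 27.6%. The median log2 ratios of the members were 0.08, 0.13 and -0.13 and those of all genes -0.08, -0.03 and -0.12. In mesothelial-like clusters 2 were higher and 1 lower of 19, beside 8.06% and 12.3%, then 2 and 3 of 18, beside 13.3% and 9.58%, then 2 and 6 of 19, beside 15.3% and 18.1%.

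In macrophage-like clusters 0 members were higher and 5 lower of 12 in Mid_Ob against Ctrl, beside 8.71% and 14.8% of all genes. The counts were 3 and 7 of 18 in Ob against Mid_Ob, beside 13.1% and 18.4%, and 2 and 10 of 20 in Ob against Ctrl, beside 13.7% and 24.1%. The members lower in Ob than in Ctrl were led by Fzd3 (6.45-fold), Rspo1 (6.22-fold) and Dkk3 (6.17-fold), at 2.01, 5.72 and 1.05 CPM in Ob, against 13, 35.6 and 6.49 CPM in Ctrl. These counts depended on the 2 macrophage-like clusters of Ctrl, and without its cluster 9 they were 2 and 1 of 7 in Mid_Ob against Ctrl, beside 15.2% and 7.72% of all genes, and 6 and 5 of 17 in Ob against Ctrl, beside 18.3% and 15.3%.

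Fibroblast or progenitor-like clusters, the class in which adipocyte progenitors would be found, could be compared for Ob and Mid_Ob alone. There 3 members were higher and 11 lower of 21, beside 18.6% and 13.4% of all genes, and the median log2 ratio was -0.60 for the members and 0.04 for all genes. Wnt10b stood at 4.16 CPM in Ob against 24.7 CPM in Mid_Ob (5.93-fold lower, 3.67 to 9.59). Rspo3 stood at 5.62 CPM against 29.2 CPM (5.20-fold lower, 3.40 to 7.94) and Wnt5a at 12 CPM against 42.9 CPM (3.56-fold lower, 2.58 to 4.89). Wnt5b stood at 25.8 CPM against 76.7 CPM (2.98-fold lower, 2.36 to 3.73) and Sfrp1 at 11.1 CPM against 31.8 CPM (2.86-fold lower, 1.99 to 4.07). The higher members Fzd7 (2.15-fold), Dkk3 (1.90-fold) and Wnt2 (1.67-fold) had intervals that include no change. The class was made of clusters 8 and 19 in Ob and cluster 8 in Mid_Ob, and the calls were 0 higher and 7 lower of 11 without cluster 8 of Ob, beside 22.8% and 18.1% of all genes, and 1 and 7 of 15 without its cluster 19, beside 10.6% and 13.3%. The unnamed cluster 9 of Ob, in which all 14 fibroblast or progenitor markers were over 2-fold, was not part of the class. In that cluster Sfrp1 stood at 28.5 CPM, Wnt5b at 36.6 CPM, Wnt10b at 6.46 CPM, Wnt2 at 17.8 CPM and Dkk2 at 31.8 CPM. How the calls would stand with it included was not tested. The 14 fibroblast or progenitor markers summed in this class to 8216 CPM in Ob (5040 to 11016 CPM over its 2 clusters) against 10249 CPM in Mid_Ob. The 14 macrophage markers, none at 0, summed to 1956 CPM in Ob (472 to 3639 CPM over its 2 clusters) against 486 CPM in Mid_Ob. The 17 epididymal markers summed to 90.1 CPM in Ob, with 11 at 0, against 1645 CPM in Mid_Ob, with 0 at 0. Their part in these calls was not tested.

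Endothelial-like clusters were also compared for Ob and Mid_Ob alone. The class was made of clusters 16 and 21 in Ob, with 334383 and 421700 UMIs, and of cluster 9 in Mid_Ob. Cluster 21 is led by Reln, Prox1 and Flt4, known from lymphatic endothelium. Whether the class holds the same kinds of endothelium at both stages was not tested. There 1 member was higher and 5 lower of 11, beside 13.3% and 19.8% of all genes. Wnt4 stood at 5.29 CPM in Ob against 28.7 CPM in Mid_Ob (5.43-fold lower, 2.0 to 20.6), from 4 and 53 UMIs. Fzd3 was 3.93-fold lower (1.57 to 12.7) and Wnt5b 3.07-fold lower (1.58 to 6.67). The highest ratios were those of Rspo3, at 43.6 CPM in Ob against 19 CPM in Mid_Ob (2.30-fold higher, 1.39 to 3.81), and, within the limit, of Fzd6 (1.45-fold) and Fzd4 (1.09-fold). Rspo3 rested on cluster 21 of Ob, without which the ratio was 0.473. The 12 endothelial markers summed to 4342 CPM in Ob against 2937 CPM in Mid_Ob. The 16 adipocyte markers, none at 0, summed to 10263 CPM in Ob (6256 to 15318 CPM over its 2 clusters) against 4823 CPM in Mid_Ob, and the 17 epididymal markers to 52.9 CPM in Ob, with 15 at 0, against 1786 CPM in Mid_Ob, with 0 at 0. Their part in these ratios was not tested.

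Epididymal epithelium-like clusters were compared for Mid_Ob and Ctrl alone. There 1 member was higher and 7 lower of 17, beside 24.1% and 26.8% of all genes. Rspo3 stood at 7.8 CPM in Mid_Ob against 2.44 CPM in Ctrl (3.2-fold higher, 1.51 to 8.10), followed, within the limit, by Wnt7b (1.38-fold) and Wnt2b (1.21-fold). Dkk3 stood at 2.24 CPM in Mid_Ob against 41.4 CPM in Ctrl (18.5-fold lower, 12.8 to 27.3), Rspo1 at 14.3 CPM against 108 CPM (7.59-fold lower, 6.40 to 9.0) and Fzd4 at 12.1 CPM against 31.0 CPM (2.56-fold lower, 1.98 to 3.30). The 17 epididymal markers summed to 19049 CPM in these clusters of Mid_Ob and to 1712 CPM in that of Ctrl, and the 12 mesothelial markers to 235 and 738 CPM in the same order. Their part in these ratios was not tested.

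In lymphocyte-like clusters 2, 3 and 3 members had enough counts in Mid_Ob against Ctrl, Ob against Mid_Ob and Ob against Ctrl, and 0 were called. Of all genes, 11.8% were higher and 14% lower in the first comparison, 11.5% and 11% in the second, and 17.4% and 19.2% in the third. Lrp6 stood at 168, 150 and 146 CPM there in Ctrl, Mid_Ob and Ob, Lgr4 at 62.7, 75.2 and 56.3 CPM and Fzd4 at 32.9, 46.6 and 41.6 CPM.

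The highest levels of many ligands and inhibitors lay outside the adipocyte-like and macrophage-like classes. Cluster 8 of Mid_Ob had the highest level of that library for 7 members (Wnt5a, Wnt5b, Wnt10b, Rspo3, Dkk2, Sfrp1 and Sfrp4), and the unnamed cluster 4 of Ctrl for 8, of which Wnt5a, Wnt5b, Wnt10b, Rspo3, Sfrp1 and Sfrp4 are shared with it. In Ob the unnamed cluster 9, in which all 14 fibroblast or progenitor markers were over 2-fold, was highest for 5 (Wnt2, Wnt5b, Wnt10b, Dkk2 and Sfrp1). The mesothelial-like cluster 12 of Ob was highest for 8 members and cluster 6 of Mid_Ob for 7. The share of all genes with their highest level in each of these clusters was not determined. These numbers therefore cannot be set beside a background. By counts rather than level, adipocyte-like clusters held the largest share of a member for 10 of 36 members in Ctrl, 18 of 30 in Mid_Ob and 23 of 30 in Ob, among members with at least 50 counts in that library, which goes with their growing share of all UMIs.

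The members with fewer than 50 counts were Wnt8a, Wnt9b, Wnt10a, Wnt16, Fzd9, Fzd10, Rspo4, Dkk1 and Dkk4. Of these, Wnt8a and Fzd9 had 0 counts in Mid_Ob, Wnt10a in Ob, and Dkk1 in Ctrl and Ob. The others were counted at low numbers in every library. For a count of 0 the exact Poisson interval reached up to 0.0683 CPM in Ctrl, 0.0640 CPM in Mid_Ob and 0.0331 CPM in Ob. A gene with 0 counts in a library was therefore not detected there, and levels up to that limit remain possible.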

How the data were processed

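Nuclei of pooled fat from 8 mice made up each of the 3 libraries. Reads were aligned by the authors with STAR inside Cell Ranger. Which versions, build and annotation they used is not given in the sources used here. The signal values are the authors' deposited mean counts per gene and cluster, divided by the size factor of the cluster, and whole UMIs were recovered from them (100% whole within 0.001 counts). The deposited log2 values (a cluster against all other nuclei) and the adjusted p-values of that contrast, made by the authors with nuclei as replicates, were not used. Samples were grouped by the stage in their labels.

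UMIs were summed over libraries or classes of clusters and given as CPM, with exact Poisson intervals for levels, exact binomial intervals for shares and conditional binomial intervals for ratios, all at 95% and for counting error only, since PCR and mouse-to-mouse error are not covered. Total depth was 53980929, 57665213 and 111595518 UMIs in Ctrl, Mid_Ob and Ob. Both the recovery of UMIs and the ratio intervals were first tested on simulated data. Members, gene lists and limits were chosen with earlier results of these data known, and clusters were named after their markers were seen. Named in full were the 4 members of each role with the most counts, the 5 highest and 5 lowest ratios between libraries, the 3 highest and 3 lowest within a class and, of the other pathway genes, the 3 highest and 3 lowest between libraries. Lef1, Rnf43 and the genes given within 1.5-fold beside Axin2, and further members used as examples, were picked after their values were seen. Of 29625 gene identifiers 29565 matched GENCODE M21 (GRCm38), all 50 members included. Alternatives covered scaling, clusters left out, equal cluster weights, count minimums of 10 and 500 and the fold limit. Nuclei, raw reads and the study's own cell labels were not used here, doublets and free RNA could not be removed, and free RNA of one cell type can be counted in the clusters of another. The scripts ran under Python 3.11.15 (pandas 2.3.3, numpy 2.4.6, scipy 1.17.1, matplotlib 3.10.9).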

Additional observations from a re-analysis of the deposited data

Results flagged for a closer look

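Fzd6 differed in direction between classes for Mid_Ob against Ctrl, with ratios of 2.2 in adipocyte-like clusters (571 against 131 UMIs), 1.66 in mesothelial-like clusters (88 against 127 UMIs) and 0.639 in epididymal epithelium-like clusters (1323 against 341 UMIs). Rspo3 did so for Ob against Mid_Ob, with ratios of 2.30 in endothelial-like clusters (33 against 35 UMIs), 0.362 in adipocyte-like clusters (63 against 76 UMIs) and 0.192 in fibroblast or progenitor-like clusters (50 against 45 UMIs). Fzd7 differed for Mid_Ob against Ctrl. The ratio was 1.80 in adipocyte-like clusters (111 against 31 UMIs) and 0.371 in macrophage-like clusters (16 against 58 UMIs). Sfrp2 did so for Ob against Ctrl, with a ratio of 0.472 in adipocyte-like clusters (75 against 35 UMIs), 1.82 in mesothelial-like clusters (111 against 124 UMIs) and 2.84 in macrophage-like clusters (78 against 6 UMIs). With 1 library per stage these differences between classes were not tested.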

How the results depend on the processing

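No paired analysis was possible because each stage has 1 library. Of the recomputed counts and median shares, 97 stayed within their limit and 40 did not, and of the recomputed ratios of single members 386 stayed inside the counting interval, 72 moved further and 5 reversed. The reversals were Wnt8b at 0.576 (Mid_Ob against Ctrl) and 0.829 (Ob against Ctrl) and Wif1 at 0.781 (Ob against Ctrl) with equal weight for every cluster, Axin2 at 1.5 in macrophage-like clusters of Mid_Ob against Ctrl without cluster 9 of Ctrl, and Rspo3 at 0.473 in endothelial-like clusters of Ob against Mid_Ob without cluster 21 of Ob. The numbers of members called that follow join higher and lower. For the number of members called between libraries, a fold limit of 2 gave 13 for Mid_Ob against Ctrl, and a minimum of 500 counts gave 6, 11 and 13 for Mid_Ob against Ctrl, Ob against Mid_Ob and Ob against Ctrl. With the fold limit of 2, 10% of all genes were higher and 28.1% lower. With the minimum of 500, 16.3%, 17.4% and 20.4% of all genes were higher and 27.1%, 20.8% and 33% lower. In adipocyte-like clusters a minimum of 10 counts gave 19 for Mid_Ob against Ctrl, a minimum of 500 gave 2, 8 and 6 in the 3 comparisons, and asking for the whole interval beyond 1.5-fold gave 3 for Mid_Ob against Ctrl and 10 for Ob against Ctrl. At a minimum of 10, 17.2% of all genes were higher and 26.8% lower. At 500, 11.8%, 13.3% and 18.2% were higher and 10.4%, 12.5% and 16.7% lower. By the whole interval 9.22% were higher and 13.5% lower for Mid_Ob against Ctrl, and 11.3% and 20.1% for Ob against Ctrl. In mesothelial-like clusters a minimum of 10 gave 14, 8 and 18, a minimum of 500 gave 0, 0 and 1, and the whole interval gave 1, 1 and 1. At a minimum of 10, 12.4%, 16.8% and 17.1% of all genes were higher and 21.9%, 15.5% and 27.2% lower. At 500, 3.03%, 7.78% and 9.82% were higher and 3.03%, 4.28% and 8.66% lower. By the whole interval 2.52% were higher and 4.88% lower for Mid_Ob against Ctrl, and 5.31% and 2.76% for Ob against Mid_Ob. For the classes that follow, the shares of all genes and the numbers of members tested at the other minimums and by the whole interval are not given here. Their counts at those limits therefore cannot be set beside a background. In macrophage-like clusters a minimum of 10 gave 14 for Mid_Ob against Ctrl and 20 for Ob against Ctrl, a minimum of 500 gave 0, 1 and 2, the whole interval gave 3 for Mid_Ob against Ctrl, and leaving out cluster 9 of Ctrl gave 3 there. In fibroblast or progenitor-like clusters of Ob against Mid_Ob, leaving out cluster 8 of Ob gave 7, leaving out cluster 19 gave 8, a minimum of 500 gave 0 and the whole interval gave 7. In endothelial-like clusters a minimum of 10 gave 17 and one of 500 gave 0. In epididymal epithelium-like clusters a minimum of 10 gave 15, one of 500 gave 4 and the whole interval gave 5. In lymphocyte-like clusters a minimum of 10 gave 3, 5 and 8 in the 3 comparisons, against 0 at the minimum of 50. The higher minimum and the interval test fewer members or ask more of each, and fewer counts limit the smaller classes. The share of all genes called moves with these limits too. These numbers therefore show how the calls depend on the limits, and not whether members differ from all genes. The median over members of the largest class share was 46.8% in Mid_Ob and 55.0% in Ob by counts and 15.8% and 17.7% with equal weight for every cluster.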

Other observations

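The unnamed cluster 7 of Mid_Ob, led by Tinag, Rdh16, Slc9a3, A1cf and Kcnj16, had the highest level in that library of 3 members, Fzd6 at 261 CPM, Notum at 28.0 CPM and Axin2 at 87.3 CPM, and Rspo1 stood at 175 CPM there. The unnamed cluster 17 of Ob, led by genes of cilia such as Rgs22, Dnah11 and Cfap44, had the highest level in Ob of Axin2 (40.5 CPM), Dkk3 (29.6 CPM) and Wif1, with Fzd6 at 129 CPM, Rspo1 at 125 CPM and Notum at 8.21 CPM. Cluster 8 of Ctrl, which is epididymal epithelium-like, had Fzd6 at 119 CPM, Rspo1 at 108 CPM and Notum at 4.88 CPM. The 2 unnamed clusters entered no comparison between stages within a class.

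Some members were also counted at high levels in endothelial-like clusters. In cluster 21 of Ob, Fzd6 (254 CPM) and Rspo3 (71.1 CPM) were at their highest in that library, and in the endothelial-like cluster 9 of Mid_Ob Fzd6 stood at 111 CPM, Wnt4 at 28.7 CPM and Rspo3 at 19 CPM. In Mid_Ob, Fzd6 was higher in the unnamed clusters 7 and 11, and Rspo3 was higher in the fibroblast or progenitor-like cluster 8 (29.2 CPM). In Ctrl no cluster was named endothelial-like, so no comparison with Ctrl was made.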
